A study of Homo sapiens with 6 samples.

Results

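The genes described here are SON, the target of the siRNA used in the study, and 8 genes that lie beside it in band 21q22.11 of the long arm of chromosome 21. They were taken by name from the deposited table of gene counts, in which IFNAR1, IFNGR2, TMEM50B, DNAJC28, GART, SON, DONSON, CRYZL1 and ITSN1 make up 9 of 58735 genes. All 9 are protein-coding, and each was found in the table exactly 1 time. In this chromosome order they run from position 33324477 to position 33899861 (GRCh38).

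SON is a large protein of nuclear speckles, the compartments where splicing factors are stored, and it helps the spliceosome to remove introns with weak splice sites. Its neighbours belong to unrelated pathways. IFNAR1 and IFNGR2 are chains of the receptors for type I interferons and interferon gamma, GART is an enzyme of purine synthesis, DONSON acts at DNA replication forks, and ITSN1 is a scaffold of clathrin-mediated endocytosis. An siRNA directs cleavage of the messenger RNA that it matches, so the neighbours share with SON a place on the chromosome and not, by design, the target.

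The libraries were made from RPE-1 cells, a human line of retinal pigment epithelial origin. The derivative used carries CETN2 tagged with GFP and a PLK4 transgene induced by doxycycline through rtTA. The cells of all 6 libraries received doxycycline at 1 µg/mL, so PLK4 was induced in the controls as well. The siSON group (n = 3) was given siRNA against SON, and the siControl group (n = 3) a scramble siRNA. The comparison asks what changes when SON is depleted in cells induced to make PLK4, the kinase that drives centriole duplication. Nothing in the labels says whether replicates were separate cultures, so p-values measure the spread between these libraries, which may be technical.

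Library totals ran from 54572365 to 69764836 counts, and the 9 genes together took 0.0659% to 0.0713% of them in siControl and 0.0464% to 0.0504% in siSON. Levels are given as CPM, each library's counts per 1000000 counts of its effective size under edgeR's TMM factors. Replicate 1 of each group stood farthest from its partners: when counts of replicate pairs were compared over genes, chi-square divided by its degrees of freedom was 18.9 to 26.3 for pairs with replicate 1 and 7.21 and 7.31 for replicates 2 and 3. Without replicate 1 of both groups, a step chosen after seeing the data, the same number of the 9 genes was called (8), and SON fell by 2.17, DNAJC28 fell by 1.19 and IFNGR2 rose by 0.90 on the log2 scale. Of 16 markers of retinal pigment epithelium, TTR, TYR and DCT had 0 counts in every library and RPE65 had 0 counts in every siSON library, whereas KRT8, KRT18, CDH2, OTX2, MITF and BEST1 were present. Of the 10 markers of this list that could be tested, those 6 were called higher in siSON, and PMEL (2.06 ± 0.04 to 0.200 ± 0.04 CPM, SD, n = 3 each), CDH3, LRAT and SERPINF1 were called lower. PMEL, CDH3 and LRAT had enough counts to be tested only through siControl, where they were high, so their calls are a description only. Of the 16 markers, 9 were under 1 CPM in every library. The summed level of the 16 was 1160 to 1270 CPM in siControl and 1970 to 2040 CPM in siSON, and without KRT8, KRT18 and CDH2 it was 53.1 to 54.9 and 74.5 to 83.6 CPM. The sum for 14 markers of other cell types was 7.47 to 8.55 CPM in siControl and 9.39 to 10.6 CPM in siSON, with 6 of them at 0 throughout. That rise was SNAP25, which is also in the list of ITSN1 partners; without it the sum was 2.66 to 3.58 and 0.853 to 1.33 CPM, and PTPRC and PECAM1 were called lower. The part of these shifts in the results was not tested, and in bulk libraries fewer cells of a type cannot be told apart from less RNA per cell.

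The layout of the locus bears on how the genes can be compared, because 4 of the 9 are arranged head to head. By the RefSeq starts on GRCh38.p14, GART on the minus strand and SON on the plus strand begin 145 bases apart, and CRYZL1 on the minus strand and ITSN1 on the plus strand begin 759 bases apart. The bases between GART and SON and the 250 bases before the starts of CRYZL1 and ITSN1 are shown because each pair transcribes away from shared or adjoining promoter sequence. Capitals mark CCAAT, the box bound by factor NF-Y, and GGGCGG, the GC box bound by Sp1-type factors, on either strand (ATTGG and CCGCCC are their reverse complements). The sequences are RefSeq's, at chr21:33542893-33543037 (plus strand, from GART to SON), chr21:33641742-33641991 (minus strand, CRYZL1) and chr21:33642251-33642500 (plus strand, ITSN1).
GART to SON: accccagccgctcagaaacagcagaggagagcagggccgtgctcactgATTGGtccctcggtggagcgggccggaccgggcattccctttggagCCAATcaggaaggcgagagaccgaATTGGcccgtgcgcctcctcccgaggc
CRYZL1: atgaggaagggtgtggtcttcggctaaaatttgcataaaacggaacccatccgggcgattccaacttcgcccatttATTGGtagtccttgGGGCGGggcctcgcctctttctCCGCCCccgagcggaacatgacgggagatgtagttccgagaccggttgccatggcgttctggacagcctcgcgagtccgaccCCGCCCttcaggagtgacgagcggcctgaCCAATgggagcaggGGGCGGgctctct
ITSN1: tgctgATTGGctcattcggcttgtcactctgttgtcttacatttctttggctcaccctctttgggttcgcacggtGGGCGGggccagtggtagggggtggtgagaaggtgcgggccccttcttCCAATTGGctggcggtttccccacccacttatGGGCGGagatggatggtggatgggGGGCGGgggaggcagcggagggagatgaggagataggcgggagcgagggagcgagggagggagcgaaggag

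The segment between GART and SON has a GC content of 66.2% and holds 3 CCAAT matches and no GGGCGG or TATAAA. At least 3 CCAAT matches were found in 1.15% of the 35116 RefSeq promoter windows cut to the same 145 bases, and at least 1 in 23.0%. The CRYZL1 sequence holds 2 CCAAT and 4 GGGCGG matches, and the ITSN1 sequence holds 3 of each, where a pair of CCAAT matches on opposite strands shares bases in the run CCAATTGG. Among windows of 250 bases, 9.53% had at least 2 CCAAT matches, 2.93% at least 3, and 13.9% at least 3 GGGCGG matches. No TATAAA was found in any of the 3 sequences. At least 1 was found in 6.48% of windows of 145 bases and in 10.7% of windows of 250 bases. Promoter sequence was found for 7 of the 9 genes.

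Among the 9 genes, 8 were called changed at an edgeR adjusted p under 0.05, 5 higher and 3 lower in siSON, and DONSON was not. This share is read against 71.7% of all 16591 genes tested, of which 35.2% were called higher and 36.5% lower. Higher genes made up 49.1% of all calls, and 37.7% when libraries were scaled by their size alone. The median log2 fold change was 0.15 over the 9 genes and -0.03 over all genes tested. The groups did not overlap for 8 of the 9 genes, against 75.1% of all genes tested. When the test was made against a 1.5-fold change, SON, DNAJC28 and IFNGR2 were called, 3 of 9 beside 36.9% of all genes tested. The split between directions rested on the scaling: library size alone gave 3 higher and 4 lower, cyclic loess normalization gave 4 and 2, and the median of the 9 turned to -0.04 and -0.07. Those scalings moved the log2 fold changes of all genes by medians of -0.20 and 0.14.

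**Figure D1:**
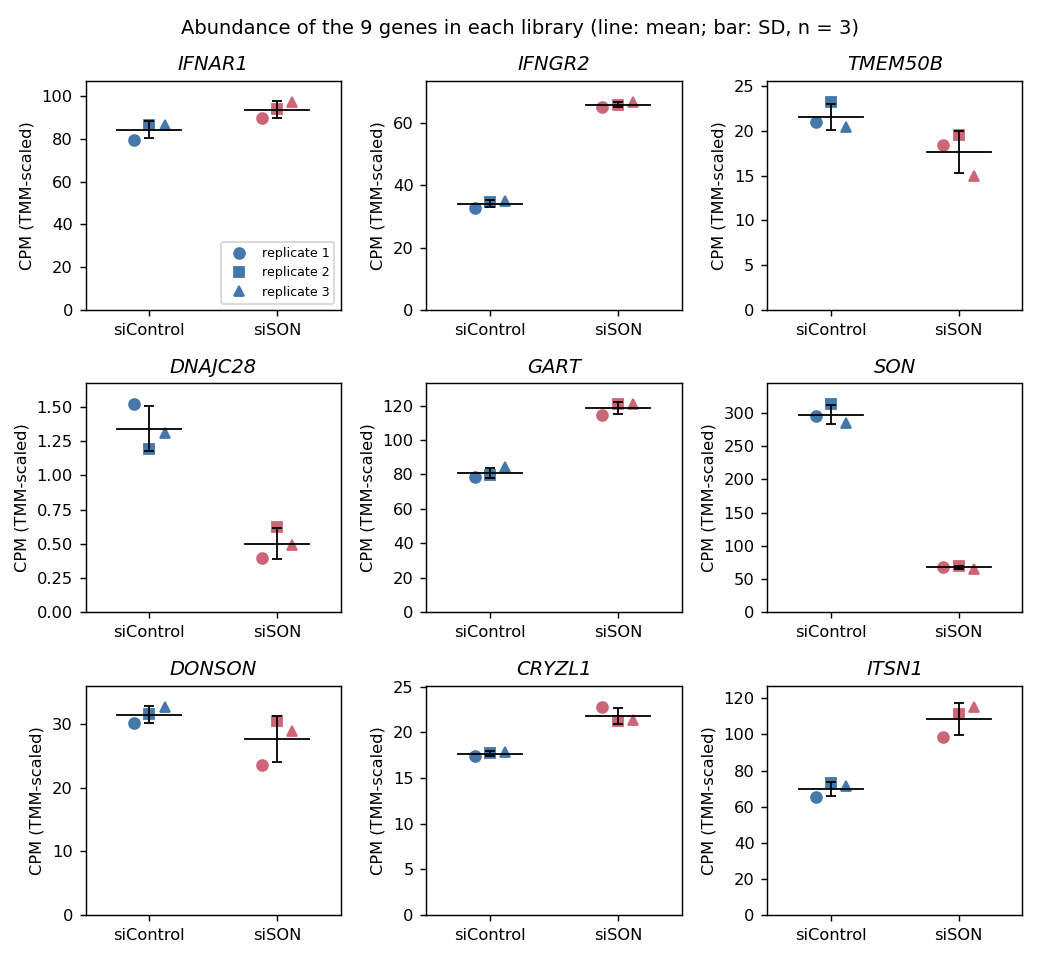
Abundance of the 9 genes in CPM (y axis, from 0) in the 3 siControl and 3 siSON libraries, in chromosome order, with symbols for replicates, a line for the mean and a bar for the SD. SON falls from 297 to 67.6 CPM while GART beside it goes from 80.9 to 119 CPM, and DONSON is the gene whose groups overlap.

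SON (ENSG00000159140; chromosome 21, 33542618 to 33577481, plus strand, up to 13 exons) was the most abundant of the 9 in siControl. Its counts were 20607, 19880 and 21211 in siControl and 3944, 3608 and 3304 in siSON. In CPM these were 295.2, 312.5 and 283.7 against 67.93, 69.93 and 64.98, so every siSON library lay far below every siControl library. The share of all counts taken by SON went from between 0.0304% and 0.0337% to between 0.00605% and 0.00661%. The level left was 22.8% of control, a log2 fold change of -2.14 (95% interval -2.25 to -2.02, edgeR adjusted p 6.78e-10). A knockdown sets this value, so it checks the labels and is no finding about the locus. Beside all genes tested, 1176 of 16591 had a log2 fold change as low as that of SON or lower.

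GART (ENSG00000159131; 33503931 to 33543491, minus strand, up to 22 exons) encodes a single protein that carries several steps of de novo purine synthesis. It had 78.78, 79.56 and 84.22 CPM in siControl and 114.5, 120.7 and 120.6 CPM in siSON. All siSON libraries were above all siControl libraries, and the group values were 80.9 ± 2.94 and 119 ± 3.59 CPM (SD, n = 3 each). GART rose by 0.55 on the log2 scale (SE 0.05, edgeR adjusted p 3.39e-06), or 1.47-fold, by 0.36 with library size alone and by 0.31 after cyclic loess normalization. The gene that starts 145 bases away on the other strand thus went up in the libraries where SON went down. Per kilobase of exon, GART stood at 0.454, 0.433 and 0.504 times SON in siControl and at 2.86, 2.93 and 3.15 times SON in siSON.

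DONSON (ENSG00000159147; 33559542 to 33588708, minus strand, up to 11 exons) lies tail to tail with SON and encodes a replication fork protein that takes part in assembling the helicase that opens DNA. Its CPM values were 30.07, 31.52 and 32.68 in siControl and 23.60, 30.45 and 28.93 in siSON. The siSON value of replicate 2 lay within the siControl range, and replicate 1 was the lowest of all 6. The difference of -0.19 in log2 was not called (95% interval -0.37 to 0.00, edgeR adjusted p 0.0989). Without siSON replicate 1 it was -0.07. It was called with library size alone (-0.38, edgeR adjusted p 0.00547), and when genes under a mean of 50 counts were left out (-0.24, edgeR adjusted p 0.0363).

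Annotated exons of GART and SON share 275 bases, which are 3.5% of GART's exon bases and 2.1% of SON's, and those of DONSON and SON share 307 bases, 8.7% of DONSON's. These pairs lie on opposite strands and the strand setting of the counting is not stated, so reads from the shared bases may be missing or misassigned. MIR6501, a microRNA gene inside a SON exon, and AP000311.1, a same-strand gene model that spans CRYZL1 and part of DONSON, had 0 counts in all 6 libraries. The siRNA sequence is not given in the sources used here, so its place within SON was not examined.

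ITSN1 (ENSG00000205726; 33642400 to 33899861, plus strand, up to 40 exons) has by far the longest span of the 9, at 257462 bases. It is a multidomain scaffold that gathers endocytic proteins at clathrin-coated pits, and its long form also activates the GTPase CDC42. ITSN1 had 65.13, 72.93 and 71.17 CPM in siControl and 98.37, 111.2 and 115.3 CPM in siSON. The groups were well apart although the siSON libraries spread more, with 69.7 ± 4.09 and 108 ± 8.83 CPM (SD, n = 3 each). ITSN1 rose by 0.63 on the log2 scale (SE 0.07, edgeR adjusted p 1.05e-05), or 1.55-fold, and by 0.41 after cyclic loess normalization.

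CRYZL1 (ENSG00000205758; 33589341 to 33643926, minus strand, up to 13 exons), the head-to-head partner of ITSN1, encodes a protein related to zeta-crystallin quinone reductases and a subunit of the endosomal FERRY complex. Its CPM values were 17.43, 17.72 and 17.89 in siControl and 22.80, 21.24 and 21.32 in siSON, without overlap. CRYZL1 rose by 0.30 on the log2 scale (SE 0.07, edgeR adjusted p 0.00301), a call lost with library size alone (0.10, edgeR adjusted p 0.214). The ratio of ITSN1 to CRYZL1 per kilobase of exon was 1.06, 1.17 and 1.13 in siControl and 1.23, 1.49 and 1.54 in siSON. Both members of this pair were higher in siSON, ITSN1 by 1.26 times more than CRYZL1.

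IFNGR2 (ENSG00000159128; 33402896 to 33479348, plus strand, up to 8 exons), the signalling chain of the interferon gamma receptor that carries the kinase JAK2, had the largest rise among the 9. It had 32.89, 34.74 and 34.98 CPM in siControl and 65.28, 65.84 and 66.87 CPM in siSON. The libraries of each group lay close together and the gap between groups was many times their spread, with 34.20 ± 1.146 and 66.0 ± 0.80 CPM (SD, n = 3 each). The log2 fold change was 0.95 (95% interval 0.83 to 1.06, edgeR adjusted p 8.35e-08), or 1.93-fold. Among all genes tested, 89.7% had a log2 fold change as low as this or lower. IFNGR1, the ligand-binding chain encoded on another chromosome, went the other way, with 17.0 ± 2.10 CPM in siControl and 11.8 ± 0.30 CPM in siSON (SD, n = 3 each), a fall of 0.53 on the log2 scale (SE 0.10, edgeR adjusted p 0.000601). The ratio of IFNGR2 to IFNGR1 per kilobase of exon was 2.40, 2.32 and 2.01 in siControl and 6.27, 6.18 and 6.11 in siSON, so the balance of the receptor chains' messages moved 2.76-fold.

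IFNAR1 (ENSG00000142166; 33324477 to 33359862, plus strand, up to 11 exons), the type I interferon receptor chain that binds the kinase TYK2, changed little. Its CPM values were 79.57, 86.49 and 86.47 in siControl and 89.50, 94.09 and 97.21 in siSON, which do not overlap although the nearest values are 3 CPM apart. The log2 fold change of 0.15 (95% interval 0.04 to 0.27) was just past the threshold (edgeR adjusted p 0.0363). Its sign rested on the scaling, with -0.04 for library size alone and -0.07 after cyclic loess normalization, and the call was lost in DESeq2 (adjusted p 0.0529) and without any of siControl replicates 1, 2 and 3 or siSON replicates 2 and 3. IFNAR2, its partner chain, had 7.88 ± 0.94 CPM in siControl and 7.15 ± 0.13 CPM in siSON (SD, n = 3 each), and its difference of -0.14 in log2 was not called (SE 0.11, edgeR adjusted p 0.280; 0.13 after cyclic loess normalization). The ratio of IFNAR1 to IFNAR2 per kilobase of exon was 8.53, 7.34 and 7.73 in siControl and 9.10, 9.85 and 9.84 in siSON.

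TMEM50B (ENSG00000142188; 33432485 to 33480011, minus strand, up to 9 exons), a small membrane protein of the secretory pathway, lies across the 3′ part of the IFNGR2 span on the other strand. It had 20.98, 23.25 and 20.44 CPM in siControl and 18.48, 19.50 and 14.97 CPM in siSON. The groups do not overlap, and siSON replicate 3 is the lowest. TMEM50B fell by 0.29 on the log2 scale (SE 0.10, edgeR adjusted p 0.0274), and by 0.48 with library size alone. The call was lost without siSON replicate 3 (-0.17, edgeR adjusted p 0.128), without siControl replicate 2 (-0.25, edgeR adjusted p 0.0936) and after cyclic loess normalization (-0.23, limma adjusted p 0.0768). Exons of IFNGR2 and TMEM50B share 380 bases, 12.8% of the exon bases of IFNGR2 and 8.5% of those of TMEM50B. Because the strand setting of the counting is not stated, reads from these bases may be missing or misassigned, in the levels of both genes and in their ratio. The ratio of IFNGR2 to TMEM50B per kilobase of exon was 2.38, 2.27 and 2.60 in siControl and 5.36, 5.13 and 6.78 in siSON.

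DNAJC28 (ENSG00000177692; 33485530 to 33491720, minus strand, up to 3 exons) belongs to the J-domain co-chaperones and had the lowest level and the shortest span, 6191 bases. Its counts were 106, 76 and 98 in siControl and 23, 32 and 25 in siSON. The matching CPM values were 1.518, 1.195 and 1.311 against 0.396, 0.620 and 0.492, without overlap. DNAJC28 fell by 1.42 on the log2 scale (95% interval -1.92 to -0.92, edgeR adjusted p 0.000409), to 37.5% of control, and by 0.92 after cyclic loess normalization. At this depth the interval is the widest of the 9.

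**Figure D2:**
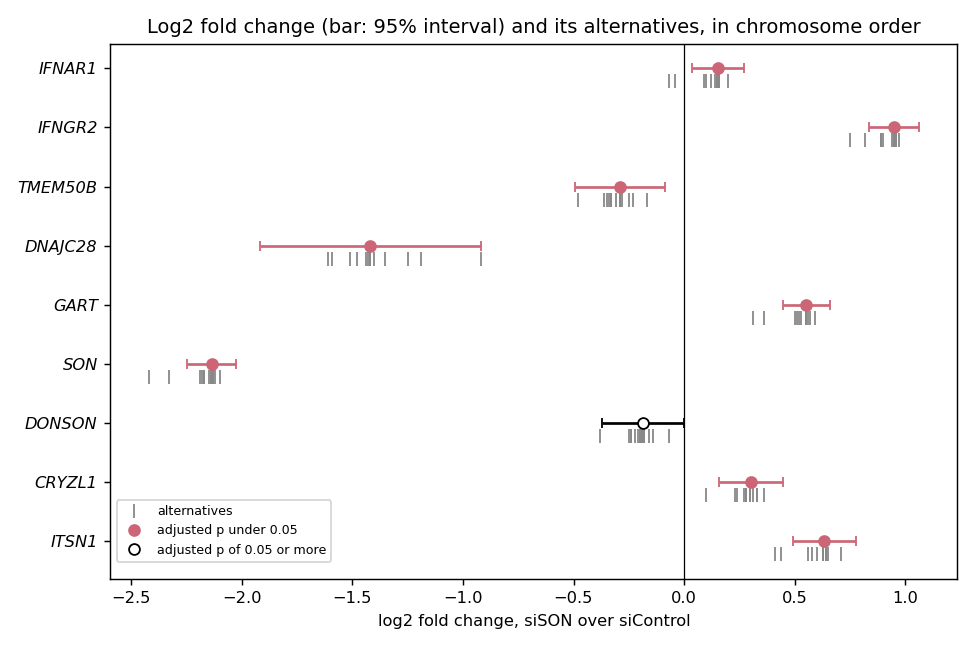
Log2 fold change of siSON over siControl (x axis) for the 9 genes in chromosome order, with the 95% interval as a bar and each alternative analysis as a grey tick. The ticks of each gene lie on the same side of 0 except those of IFNAR1, and the bar of DONSON reaches 0.

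The exact permutation test of log2 CPM (2-sided) gave p = 0.1 for 8 of the genes, the smallest that 3 libraries against 3 can give, and p = 0.2 for DONSON. Adjusted over the 9 tests these were 0.1125 and 0.2. The same exact permutation test of the 4 gene ratios without SON, in which library scaling cancels and which were chosen after the data were seen, gave p = 0.1 for each, and 0.1 after adjustment over all 6 ratios computed. These tests cannot fall below 0.05 in this design. The ratios to SON are a description only, since the siRNA lowers their denominator. The log2 difference was 2.69 for GART over SON and 1.94 for DONSON over SON (0.382, 0.378 and 0.432 in siControl, 1.30, 1.63 and 1.67 in siSON), of which SON's own fall of 2.14 is the greater part for GART and more than the whole for DONSON.

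**Figure D3:**
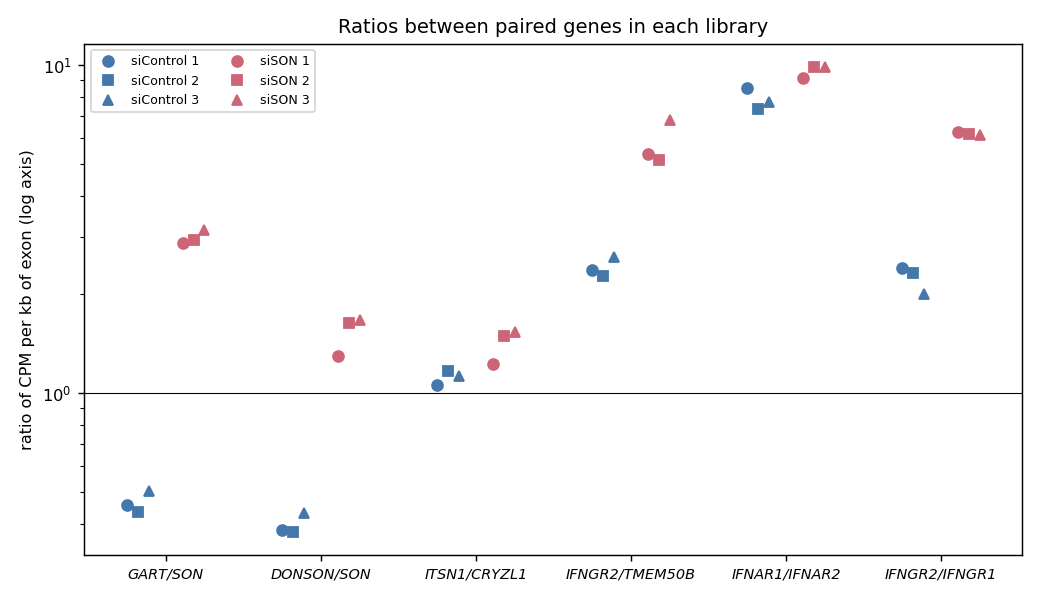
Ratio of CPM per kilobase of exon (y axis, log scale) between 6 pairs of genes in each library, siControl in blue and siSON in red. The siSON libraries lie above all siControl libraries for each pair, from 1.22-fold for IFNAR1 over IFNAR2 to 6.44-fold for GART over SON.

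Levels of different genes were compared per kilobase of exon. In siControl, SON led with 22.6 ± 1.1 CPM per kb (SD, n = 3), followed by IFNAR1 (13.4 ± 0.63), IFNGR2 (11.6 ± 0.39), GART (10.4 ± 0.38) and DONSON (8.94 ± 0.37). TMEM50B (4.80 ± 0.33), ITSN1 (3.21 ± 0.19), CRYZL1 (2.86 ± 0.04) and DNAJC28 (0.540 ± 0.07) came below, and the ranges of mean ± SD of neighbours in this order did not overlap. In siSON the order began with IFNGR2 at 22.3 ± 0.27 CPM per kb, about where SON stood in siControl. GART (15.3 ± 0.46) and IFNAR1 (14.9 ± 0.62) followed with overlapping spreads, and SON came after DONSON (7.87 ± 1.02) with 5.13 ± 0.19, within the spread of ITSN1 at 4.98 ± 0.41. TMEM50B (3.93 ± 0.53) and CRYZL1 (3.53 ± 0.14) also overlapped. Exon lengths were those of all annotated transcripts together, which understates the level of a gene that uses few of them.

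The chromosome around the 9 genes was described with a list of 24 further genes in or near 21q22.11, called the 21q22.11 genes here. Of the 24, 16 could be tested. Of these 13 were called (81.2%, beside 71.7% of all genes tested), 10 higher and 3 lower, with a median log2 fold change of 0.45. This list was chosen by name and leaves out tested genes of the same stretch, so its median does not describe the region. Over all tested genes outside the 9, the median was -0.09 within 500 kb of SON, with 2 called higher and 2 lower. From 500 to 1500 kb it was 0.03, with 6 higher and 5 lower. For the listed 21q22.11 genes, the split of 10 and 3 became 8 and 5 when libraries were scaled by their size alone. Cyclic loess normalization made it 10 and 2. The called genes of this list are named next. The genes that rose were MRPS6, a mitochondrial ribosomal protein (0.90 in log2), URB1 (0.82), IL10RB (0.64), CFAP298 (0.63), SOD1 (0.60), ATP5PO, a subunit of ATP synthase (0.50), the transcription factor RUNX1 (0.49), SCAF4 (0.46), SYNJ1 (0.44) and RCAN1, an inhibitor of calcineurin (0.39). The genes that fell were the inositol transporter SLC5A3 (-0.79), EVA1C (-0.77) and MIS18A, a factor for loading centromeric histone (-0.45). SLC5A3 lies within the span of MRPS6 on the same strand (34073570 to 34106262 within 34073224 to 34143034), so the counts of this pair are uncertain.

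PAXBP1 (0.03) and TIAM1 (0.00) had edgeR adjusted p-values of 0.732 and 0.993. With library size alone the calls of SYNJ1 (0.24, edgeR adjusted p 0.0676) and IL10RB (0.45, edgeR adjusted p 0.0679) were lost, and TIAM1 was called (-0.20, edgeR adjusted p 0.0424), as was IFNAR2 (-0.34, edgeR adjusted p 0.0211). Library size alone gave lower rises for ATP5PO (0.30), RUNX1 (0.30), SCAF4 (0.27) and RCAN1 (0.19). After cyclic loess normalization the call of EVA1C was lost (-0.39, limma adjusted p 0.119), the rises of SOD1 (0.27), RUNX1 (0.29), SCAF4 (0.30) and RCAN1 (0.25) were smaller, and that of IL10RB was larger (1.03). C21orf62, OLIG1, OLIG2, SMIM11A and HUNK had 0 counts in all libraries, where 3 counts would have been 0.0430 to 0.0550 CPM before scaling. KCNE1, KCNE2 and CLIC6 had at most 3 counts in any library.

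Over all genes tested, 71.7% were called, 35.2% higher and 36.5% lower. Calls in both directions were likewise found at all distances from SON. Within 500 kb of its start, the 9 genes included, 15 genes were tested and 12 called, 7 higher and 5 lower, and the 6 that are not among the 9 gave 2 higher and 2 lower. Between 500 and 1500 kb, 13 were tested and 11 called, 6 higher and 5 lower, and in the rest of chromosome 21 it was 82 of 131, with 43 higher and 39 lower. The medians of the log2 fold changes in these windows were -0.04, 0.03 and 0.07. Over all 159 tested genes of chromosome 21 the median was 0.03 and 66.0% were called, 56 higher and 49 lower (42 and 64 with library size alone, 66 and 49 after cyclic loess normalization).

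**Figure D4:**
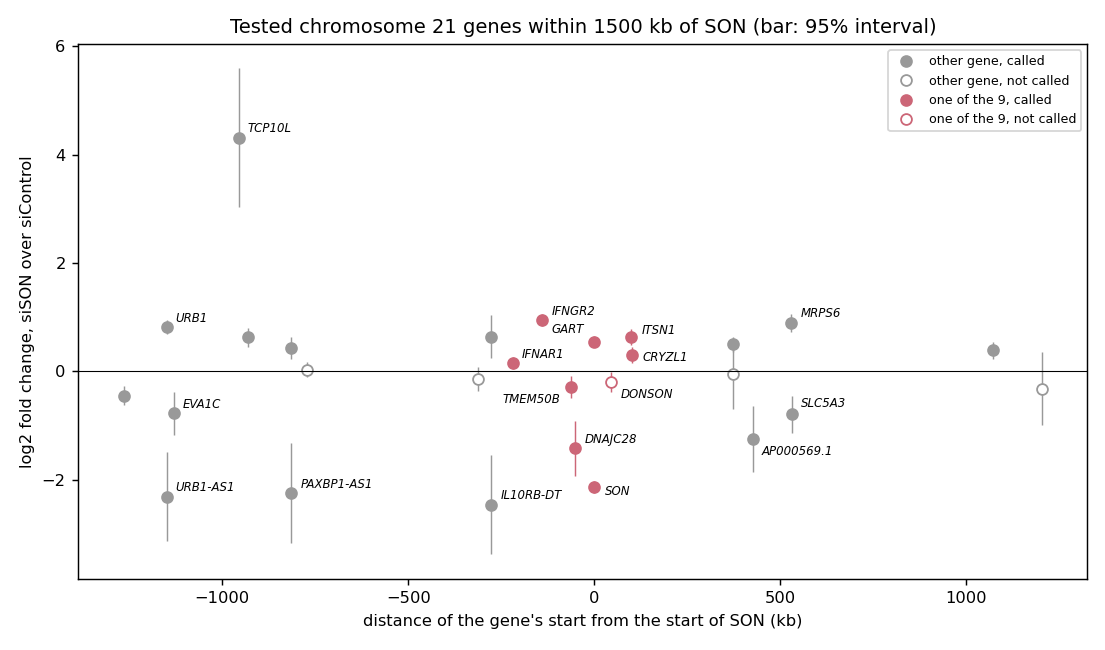
Log2 fold change (y axis, bar: 95% interval) of tested chromosome 21 genes against the distance of their start from the start of SON in kb (x axis), with the 9 genes in red and open symbols for genes not called. Rises and falls lie side by side on both flanks.

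The other genes of each pathway were taken from lists. Their calls are read against 71.7% of all genes tested, with 35.2% called higher and 36.5% lower. Among 20 tested genes of interferon receptor signalling, 18 were called, 14 higher and 4 lower (median log2 fold change 0.48). STAT3 (1.42, edgeR adjusted p 1.02e-08) and the phosphatase PTPN1, which dephosphorylates receptor kinases (1.48, edgeR adjusted p 1.14e-08), rose, and the receptor kinase TYK2 fell (-1.53, edgeR adjusted p 2.13e-08). TYK2 went from 79.3 ± 1.90 to 27.4 ± 2.88 CPM (SD, n = 3 each). JAK1, named after its values were seen because it serves both receptors, went from 184 ± 5.21 to 349 ± 18.6 CPM. JAK2, named after its values were seen because IFNGR2 carries it, went from 14.6 ± 1.27 to 11.9 ± 1.01 CPM. Their log2 fold changes of 0.93 and -0.29 were 0.59 and -0.14 after cyclic loess normalization, where JAK2 was not called (limma adjusted p 0.201), and that of JAK2 was -0.49 with library size alone. The list was split 11 and 5 with library size alone and 12 and 3 after cyclic loess normalization.

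In purine nucleotide synthesis 14 of 19 tested genes were called (73.7%, near the 71.7% of all genes tested), 4 higher and 10 lower (median -0.27). GART thus rose where 10 of the 19 were called lower, in a list that also holds salvage, one-carbon and guanine nucleotide genes. The 3 smallest adjusted p-values belonged to falls. These were SHMT2, a mitochondrial source of one-carbon units (-1.94, edgeR adjusted p 8.39e-10), the salvage enzyme APRT (-2.14, edgeR adjusted p 3.37e-09) and IMPDH2, which commits IMP to guanine nucleotides (-2.68, edgeR adjusted p 3.65e-09). IMPDH2 went from 196 ± 6.07 to 30.6 ± 4.61 CPM (SD, n = 3 each). The remaining enzymes of the pathway to IMP, named after their values were seen, split as well: PFAS (-0.55) and PAICS (-0.32) fell (PAICS by 0.52 with library size alone and by 0.63 after cyclic loess normalization), ADSL rose (0.77), and PPAT (-0.08) and ATIC (0.01) were not called, although library size alone called ATIC at -0.19 and PPAT at -0.27. With library size alone the list was split 2 higher and 13 lower, and after cyclic loess normalization 3 and 13.

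Among 28 tested genes of the replication fork and helicase loading, 23 were called, 1 higher and 22 lower (median -0.63), with 0 and 24 for library size alone and 1 and 20 after cyclic loess normalization. DONSON, which acts with these proteins, lay above most of them at -0.19. The helicase subunits CDC45 (-2.86, edgeR adjusted p 3.37e-09) and GINS4 (-2.18, edgeR adjusted p 1.36e-08) and the fork protection factor TIMELESS (-1.57, edgeR adjusted p 1.02e-07) fell. CDC45 went from 34.3 ± 1.08 to 4.73 ± 0.73 CPM (SD, n = 3 each). The gene called higher, named after its value was seen, was DBF4, the activator of the kinase CDC7 (0.31, edgeR adjusted p 0.0133), a call lost with library size alone (0.11, edgeR adjusted p 0.342).

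Among 30 tested endocytic partners of ITSN1, 26 were called, 21 higher and 5 lower (median 0.50), so ITSN1 moved with most of them. The split was 17 and 6 with library size alone and 19 and 7 after cyclic loess normalization. The 3 smallest adjusted p-values belonged to the adaptor subunits AP2A1 (-1.72, edgeR adjusted p 8.12e-09) and AP2M1 (-1.42, edgeR adjusted p 3.36e-08), which fell, and to SH3BP4 (1.23, edgeR adjusted p 3.89e-08), which rose. AP2M1 went from 588 ± 11.3 to 221 ± 25.9 CPM (SD, n = 3 each). ITSN2, the paralog of ITSN1, had a log2 fold change of 0.29 (SE 0.07, edgeR adjusted p 0.00239), which was not called with library size alone (0.09, edgeR adjusted p 0.247).

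**Figure D5:**
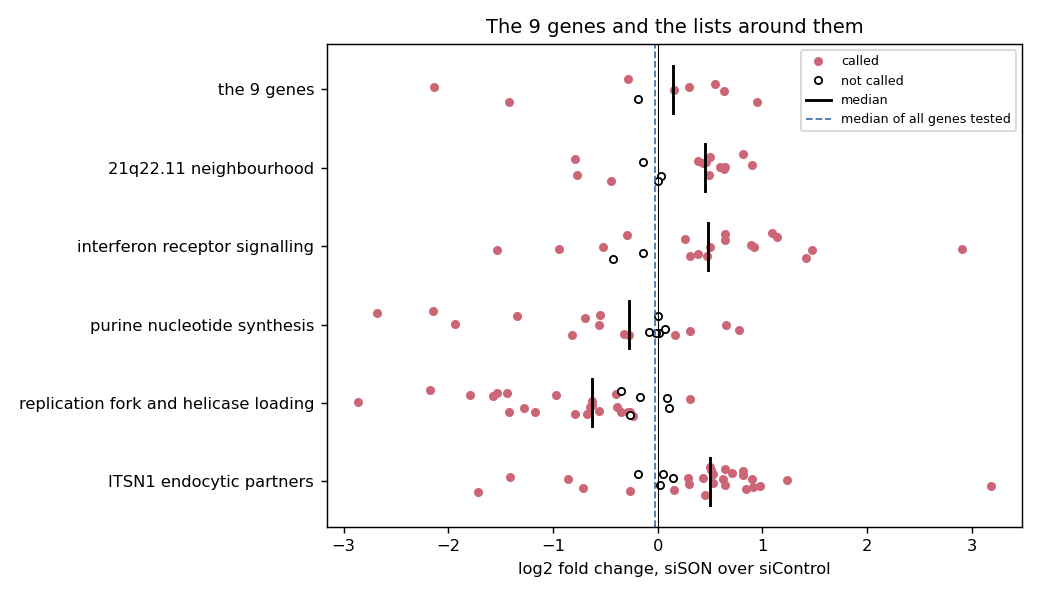
Log2 fold changes (x axis) of the 9 genes and of the tested genes of 5 lists, with filled symbols for genes called, open symbols for others, a bar for the list median and a dashed line for the median of all genes tested. The replication list lies almost wholly left of 0 with a median of -0.63, and the endocytic list lies mostly right with 0.50.

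Of 11 paralogs or relatives of the 9 genes, 10 were called (90.9%, beside 71.7% of all genes tested), 6 higher and 4 lower. Of all genes tested, 35.2% were called higher and 36.5% lower, so opposite directions within a family are common. Library size alone gave 2 higher and 5 lower among the paralogs. IFNAR2 and IL10RB stand in this list, the interferon list and the 21q22.11 list. TMEM50A rose by 0.49 on the log2 scale (SE 0.05, edgeR adjusted p 3.77e-06; 0.30 with library size alone and 0.21 after cyclic loess normalization) where TMEM50B fell. CRYZ (-0.74), VAT1 (-0.72) and TP53I3 (-3.16, edgeR adjusted p 3.35e-08) fell where CRYZL1 rose. DNAJC27 had a log2 fold change of 0.31 (edgeR adjusted p 0.0200), lost with library size alone (0.11) and at 0.58 after cyclic loess normalization, where DNAJC28 fell. SRRM2 and SRRM1, other large serine- and arginine-rich speckle proteins, had log2 fold changes of 0.80 and 0.33 where SON fell. That of SRRM2 was 0.38 after cyclic loess normalization, and that of SRRM1 was not called with library size alone (0.13, edgeR adjusted p 0.0538) or after cyclic loess normalization (0.03, limma adjusted p 0.657).

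The genes whose log2 CPM followed SON most closely over the 6 libraries, among 5657 others that averaged 5 or more in log2 CPM, were SPEG, CIZ1, TMEM94, SHKBP1 and CHD8, with Pearson's r from 0.9994 to 0.99997. Their log2 fold changes ran from -1.14 to -1.95. The likeness reflects the gap between the groups, since 392 genes had an r above 0.99, and it is given as a description. None of the 5 lies on chromosome 21. Of the 8 neighbours, DNAJC28 had an r with SON of 0.96, TMEM50B of 0.78 and DONSON of 0.63, and the other 5 had negative values, of which that of IFNAR1 (-0.83) was nearest to 0.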

How the data were processed

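The table deposited by the authors holds raw counts for each gene and library, without normalization. The submitters' processing notes name cutadapt 1.16, STAR 2.5.2a, featureCounts 1.6.2, DESeq2 1.28.1 and build hg38; the annotation, the strandedness used in counting and how multi-mappers were handled are not given in the sources used here. All 58735 identifiers matched GENCODE release 29 (GRCh38), which gave positions and exon lengths.

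The analysis used edgeR 4.0.16 in R 4.3.3: filterByExpr (minimum count 10), TMM scaling and a robust quasi-likelihood test with the group as predictor, adjusted by Benjamini-Hochberg over 16591 genes (threshold 0.05). The fit was tested on simulated data. Intervals of log2 fold changes are normal 95% intervals. The 3-count floor covers counting error only, because PCR copies were not marked by molecular identifiers. Alternatives used DESeq2 1.42.0, limma 3.58.1 (voom; cyclic loess with prior count 2), relative log expression (RLE) factors, library size alone, other filters, a replicate block and omission of libraries. Replicate 1 of both groups was left out together after seeing the data.

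The genes and lists were chosen with earlier results of these data known. Genes named besides the 9 are the tested 21q22.11 genes, overlapping genes, the 3 smallest adjusted p-values per list, the paralogs and the 5 genes most like SON; other names are said to be chosen after their values were seen.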

Additional observations from a re-analysis of the deposited data

How the results depend on the processing

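SON, DNAJC28 and IFNGR2 kept their direction and call under all 16 alternatives, with log2 fold changes of -2.42 to -2.10, -1.61 to -0.92 and 0.75 to 0.97. Against a 1.5-fold change the calls dropped to 6126 genes in all (11888 against no change), 3 of the 9 genes (8), 2 of the 21q22.11 genes (13), 8 of the interferon list (18), 6 of the purine list (14), 11 of the replication list (23) and 13 of the endocytic list (26), and the rises of GART (0.55), ITSN1 (0.63), CRYZL1 (0.30) and IFNAR1 (0.15) and the fall of TMEM50B (-0.29) were not called; this test asks for a larger change. Library size alone, which shifted all genes by a median of -0.20, ended the call of CRYZL1 (0.10), brought that of DONSON (-0.38) and turned IFNAR1 to -0.04, in the fit and in log2 CPM. Cyclic loess shifted genes by a median of 0.14, but unevenly: SON went from -2.14 to -2.42 and DNAJC28 from -1.42 to -0.92. Cyclic loess also turned IFNAR1 to -0.07 and ended the call of TMEM50B (-0.23). A mean count of at least 50 ended the call of IFNAR1 (0.10) and brought that of DONSON (-0.24), and DESeq2 ended that of IFNAR1 (0.15); the causes were not tested. Across fits without 1 library, or without both replicates 1, TMEM50B ranged from -0.36 to -0.17, IFNAR1 from 0.09 to 0.20 and DONSON from -0.25 to -0.07. Replicate numbers are shared between groups. Deviations of libraries with the same number correlated by 0.0461 to 0.194, and those with different numbers by -0.138 to 0.0286. Each of the 6 libraries correlated best with its own number. These correlations are low and no label says that a number marks a shared batch, so the numbers were not taken as pairs. A shared batch was not excluded. With the replicate block 12313 genes were called and DONSON was called at -0.19 (edgeR adjusted p 0.0277); it changed no other call among the 9 genes. Leaving out both replicates 1, chosen after seeing the data, changed no call among the 9 genes. The depth limits DNAJC28 most, with at most 32 counts in a siSON library.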

Other observations

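Of 6 non-coding genes near SON, named after their values were seen, 4 were called lower in siSON and 2 were not called. URB1-AS1 had 1.05 ± 0.17 CPM in siControl and 0.209 ± 0.13 CPM in siSON (SD, n = 3 each), a fall of 2.31 on the log2 scale (edgeR adjusted p 0.000457), while URB1, whose start lies close by on the other strand, rose by 0.82. PAXBP1-AS1 (-2.24, edgeR adjusted p 0.00116) and IL10RB-DT (-2.46, edgeR adjusted p 0.000602; -1.46 after cyclic loess normalization) fell, while PAXBP1 was not called (0.03, edgeR adjusted p 0.732) and IL10RB rose by 0.64. AP000569.1 fell by 1.24 (edgeR adjusted p 0.00404), a call lost after cyclic loess normalization (-0.66, limma adjusted p 0.0633). LINC00649 (-0.04, edgeR adjusted p 0.920) and LINC01426 (-0.32, edgeR adjusted p 0.420) were not called, and after cyclic loess normalization they were at 0.41 and 0.27. All of these were counted at about 1 CPM or less, and without a stated strand setting their counts cannot be told apart from those of any gene they overlap. IL10RB-DT was at 0.418 ± 0.08 CPM in siControl and 0.0741 ± 0.03 CPM in siSON. PAXBP1-AS1 was at 0.596 ± 0.13 CPM in siControl and 0.123 ± 0.07 CPM in siSON. Both of them and URB1-AS1 passed the filter only through siControl, where they were high. Since the 6 were named after their values were seen, their p-values and the number called lower are a description only.

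TCP10L, a protein-coding gene also named after its values were seen, has its start at -955.2 kb from that of SON. It was at 0.0246 ± 0.02 CPM in siControl and 0.518 ± 0.18 CPM in siSON (SD, n = 3 each). Its rise was 4.31 on the log2 scale (edgeR adjusted p 0.000115) on counts of 0, 3 and 2 against 20, 36 and 26. Such counts passed the filter only through the siSON libraries, where the gene was high, so this p-value is a description only.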
